A study of Mus musculus with 8 samples.

Results

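The genes described here build and maintain the photoreceptor cilium: 42 genes of intraflagellar transport (IFT), the BBSome, the transition zone, lipidated cargo transport and the kinesin motors, out of 54532 genes in the count table. They were chosen by gene symbol from their known roles, with earlier results of these data known. All 42 passed the filter on low counts that left 17998 genes for testing. The measurements were made by bulk RNA-seq on whole retinas of mice at postnatal day 7 by the labels, while the methods text of the study gives an age 1 day younger. The Mettl3-CKO group (4 samples) was Six3-Cre+; Mettl3floxed/floxed, and the control group (4 samples) was littermates whose alleles and Cre status the labels do not give. METTL3 is the catalytic subunit of the enzyme complex that places N6-methyladenosine on mRNA. Six3-Cre is active in retinal progenitors, and the study saw loss of METTL3 protein in the central retina, so that the samples also hold peripheral cells that may keep it. How many retinas or animals went into a sample is not given in the sources used here, and p-values measure only the spread between these samples.

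The outer segment of a photoreceptor is a modified primary cilium, and proteins of its discs pass through the connecting cilium, which corresponds to the transition zone of other cilia. IFT trains, made of the IFT-B and IFT-A complexes and pulled by kinesin and dynein motors, carry cargo along the axoneme, and the BBSome acts as their adaptor for membrane proteins. Lipid-modified proteins such as transducin and phosphodiesterase subunits travel instead in soluble carriers, UNC119 and PDE6D, that release their load at ARL3. Mutations in many of these genes cause retinal degeneration, Leber congenital amaurosis or Bardet-Biedl syndrome.

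Library totals lay between 16227095 and 19310791 counts in control and between 17290701 and 20281517 in Mettl3-CKO samples, and the biological coefficient of variation over all genes was 15%. Levels are given as CPM (counts scaled to library size, with TMM factors), and for comparisons between genes as FPKM, which also divides by gene length. Mettl3 itself was at 33.7, 32.4, 29.3 and 29.2 CPM in control replicates 1 to 4 and at 21.1, 29.6, 21.3 and 24.2 CPM in Mettl3-CKO replicates 1 to 4. The groups overlapped, and the log2 fold change of -0.38 (SE 0.12) had an adjusted p of 0.0602 (edgeR, quasi-likelihood, Benjamini-Hochberg), so the table does not separate the genotypes by this gene. Control replicate 4 carried 5130 CPM of 16 summed lens genes, against 9.32 to 101 in the other controls and 8.79 to 28.8 in Mettl3-CKO samples. Control replicate 1 held the highest control value for 29 of the 42 cilium genes. It also differed from control replicates 2, 3 and 4 over all but low-count genes, with a chi-square per gene of 26.3, 38.3 and 46. Pairs of the other controls gave 5.47 to 16.5, and pairs of Mettl3-CKO samples 8.69 to 16.7.

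Of the 42 cilium genes, 7 passed an adjusted p of 0.05 as lower in Mettl3-CKO and 0 as higher, by the same edgeR test over all genes. This is 16.7% of the members, where 4.05% of all genes tested were called lower and 6.49% were called higher. The lower genes were 4 of the 7 BBSome members (Bbs9, Ttc8, Bbs1 and Bbs5), 2 transition zone genes (Rpgrip1 and Cc2d2a) and the cargo carrier Unc119. In GRCm38 the table lists Unc119 (ENSMUSG00000002058) at chr11:78343482-78349164, Bbs9 (ENSMUSG00000035919) at chr9:22475715-22888280, Ttc8 (ENSMUSG00000021013) at chr12:98920574-98983238, Bbs1 (ENSMUSG00000006464) at chr19:4886898-4906627, Bbs5 (ENSMUSG00000063145) at chr2:69647171-69667571, Rpgrip1 (ENSMUSG00000057132) at chr14:52110704-52163546 and Cc2d2a (ENSMUSG00000039765) at chr5:43662346-43740972. The 11 IFT-B genes, the 3 IFT-A genes, the 4 genes of BBSome recruitment and assembly and the 2 kinesin genes gave no call. The log2 fold change was negative for 32 of the 42, with a median of -0.08. Over all genes tested the median was -0.012 and 51.8% were negative. Without control replicate 1 the log2 fold change was negative for 21 of the 42, with a median of -0.018 beside -0.002 over all genes. Leaving out any other single library gave 28 to 33 negative members, so this lean depended on control replicate 1. At an unadjusted p under 0.05 there were 14 members (33.3%), beside 24.6% of all genes tested. DESeq2 called 9 lower and 1 higher, beside 5.79% of all genes lower and 8.38% higher. Leaving out a library moved the number called lower by more than 1.5 times in 6 of 8 cases: it was 1 without Mettl3-CKO replicate 1, 2 or 3 (Unc119 each time), 2 without control replicate 2, 4 without control replicate 3 and 3 without control replicate 4.

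**Figure D1:**
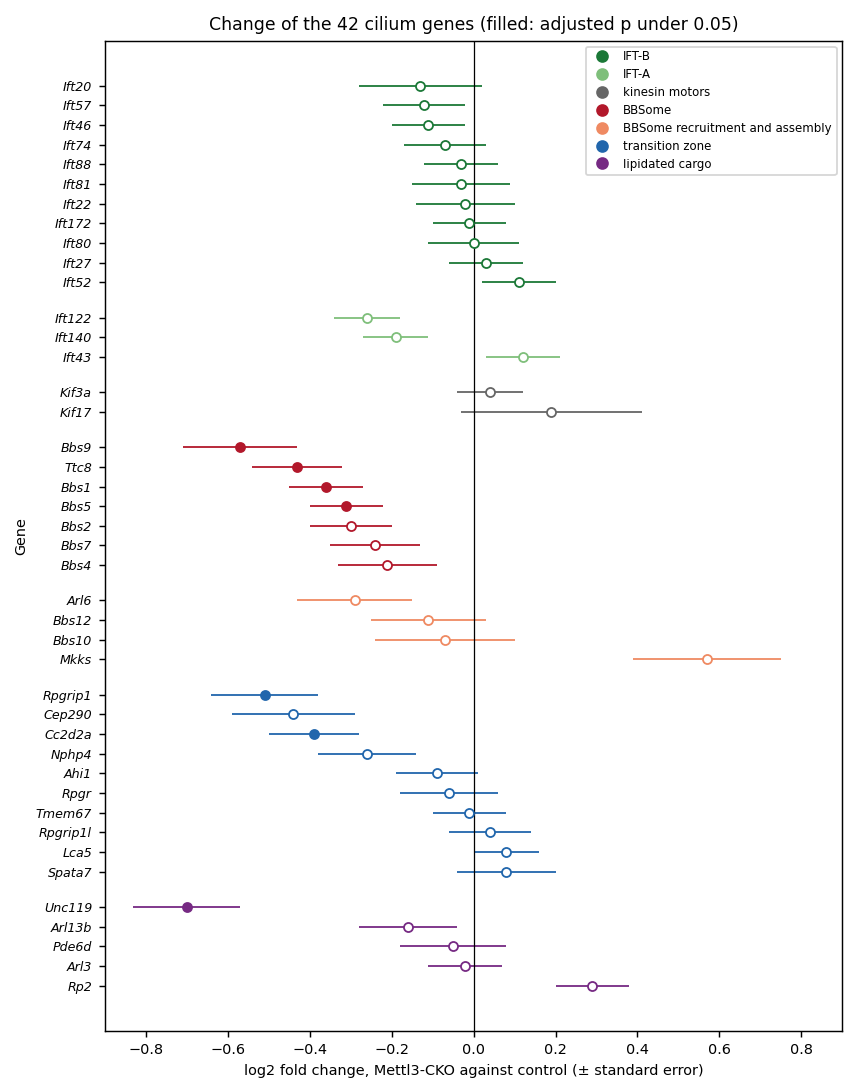
Log2 fold change in Mettl3-CKO against control retinas (horizontal axis, ± standard error) of the 42 cilium genes, grouped by role, with filled points for an adjusted p under 0.05 (edgeR, 4 samples a group). All 7 BBSome genes sit left of 0, between -0.57 and -0.21, while the 11 IFT-B genes lie between -0.13 and 0.11.

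Some of these genes carry short motifs near their start sites, and the sequences are shown for the called genes that hold a CRX core motif (TAATCC, or GGATTA on the other strand) and for the members that hold an X-box, the RFX factor site known from ciliary genes. CRX is a homeodomain factor that activates photoreceptor genes, and RFX factors activate genes of the cilium. Promoters of 300 bases (250 before to 50 after the start site, RefSeq, GRCm38.p6) were present for 38 of the 42 members. TAATCC was found in 3 of the 38 (7.89%), as in 8.14% of 27025 genes with a promoter, and the 3 were Unc119, Rpgrip1 and Bbs1, all among the 7 genes called lower, with no match among the 31 members that were not called. The X-box was found in 4 of 38 (10.5%) and in 1.75% of all genes. The NRL core TGCTGA, searched on both strands, was found in 8 of 38 (21.1%) and in 21.7% of all genes, and 4 of the 8 (Unc119, Rpgrip1, Ttc8 and Cc2d2a) were among the genes called lower. The split of either motif by call was not tested, and its share among all genes called lower was not computed. For Unc119 3 windows were searched, against 1 each for Rpgrip1 and Bbs1. These matches describe letters in a window, and binding was not measured. Unc119 has 3 start sites in the table, and its TAATCC match lies at an internal one, in an intron of the longer GENCODE transcripts, with the TGCTGA match at another. The match of Rpgrip1 lies in the first exon of a longer GENCODE transcript. The first base of the match was at position -118 from the start site in Unc119, -28 in Rpgrip1 and -197 in Bbs1. Each stretch runs 5′ to 3′ on the gene's strand and begins 10 bases before the match, which is in capitals:
Unc119 (chr11:78345456-78345485, plus strand): tgctgtttctGGATTAccaggccttgaatc
Rpgrip1 (chr14:52110865-52110894, plus strand): taaaaggcctGGATTAgtgtctcctctaag
Bbs1 (chr19:4906805-4906834, minus strand): agtctagtctTAATCCctaaaaagcgctcc
The X-box matches, in capitals, were these:
Bbs1 (chr19:4906605-4906634, minus strand): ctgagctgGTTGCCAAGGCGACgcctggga
Ift57 (chr16:49699199-49699254, plus strand): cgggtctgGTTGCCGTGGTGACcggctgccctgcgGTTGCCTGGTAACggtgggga
Ahi1 (chr10:20952560-20952589, plus strand): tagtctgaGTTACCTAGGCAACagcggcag
Kif17 (chr4:138262170-138262198, plus strand): tcacggagGTTGCCCAGCAACggcgaacg
The Kif17 match lies at an internal start site, since the gene is listed from chr4:138250435 on the plus strand. Bbs1 was the only member with both TAATCC and an X-box, and it was lower in Mettl3-CKO, while Ift57, Ahi1 and Kif17 were not called.

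Unc119 showed the largest fall of the 42 genes. UNC119 binds the myristoylated rod transducin alpha subunit and carries it to the outer segment. Its level was 422, 326, 276 and 310 CPM in control replicates 1 to 4, and 180, 188, 214 and 237 CPM in Mettl3-CKO replicates 1 to 4. Every control sample lay above every Mettl3-CKO sample, with control replicate 1 farthest up. The mean was 334 ± 62.4 in control and 205 ± 26.1 in Mettl3-CKO (SD, n = 4 each), a change of -38.6%, and the log2 fold change was -0.70 (SE 0.13, adjusted p = 0.00567 in edgeR). The two-sided exact permutation test of 4 against 4 samples gave p = 0.0286, the smallest this design allows, which any gene without overlap reaches. Whichever of the 8 libraries was left out, Unc119 stayed called, as no other member did.

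The other 4 genes of lipidated cargo transport gave no call. Pde6d, which encodes the carrier of prenylated phosphodiesterase, was at 58.0 ± 3.75 CPM in Mettl3-CKO and 59.9 ± 12.4 CPM in control, with a log2 fold change of -0.05 (SE 0.13, adjusted p = 0.867). Arl3, which encodes the small GTPase that unloads both carriers, differed by -0.02 (SE 0.09, adjusted p = 0.915). Arl13b, whose product activates ARL3, differed by -0.16 (SE 0.12, adjusted p = 0.468). These differences were within the spread between samples. Rp2, which encodes the GTPase-activating protein of ARL3, was at 20.8, 19.5, 19.0 and 20.6 CPM in control and at 26.1, 24.5, 24.7 and 22.4 CPM in Mettl3-CKO. All Mettl3-CKO samples lay above all controls, as did 9.76% of all genes tested, and the log2 fold change of 0.29 (SE 0.09) had an adjusted p of 0.0666 in edgeR, short of the threshold. Without control replicate 1, Rp2 passed it. Within each sample, the ratio of Unc119 to Pde6d FPKM was 4.81, 4.99, 4.68 and 5.4 in control and 2.60, 3.06, 3.13 and 3.83 in Mettl3-CKO. The ratios did not overlap, and the pair was chosen after its values were seen, so no test was made.

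**Figure D2:**
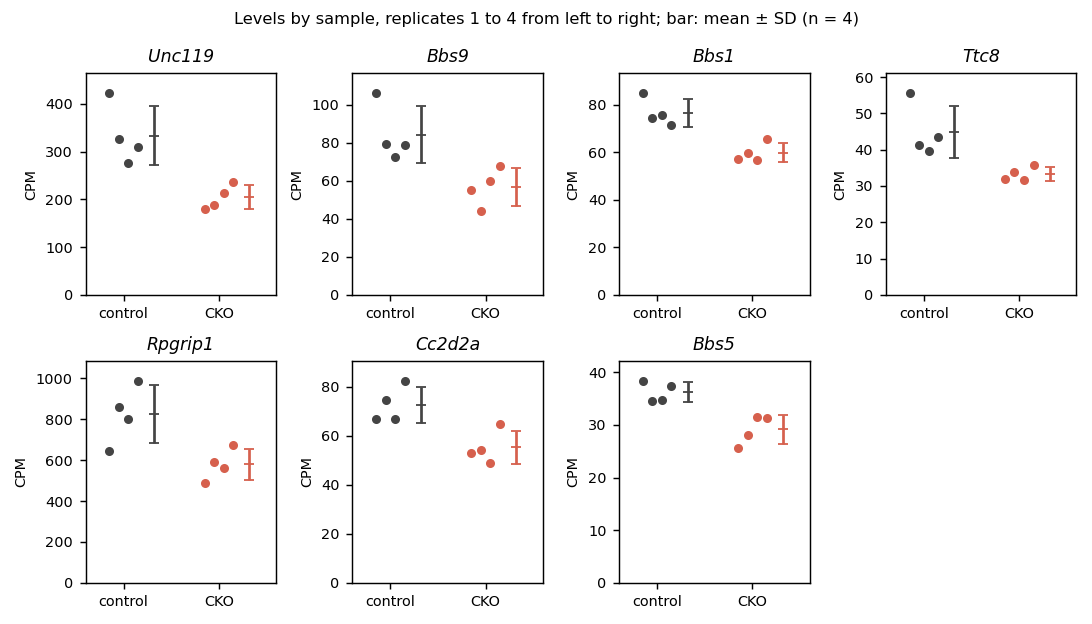
CPM (vertical axes, from 0) of the 7 genes called lower, in control (grey) and Mettl3-CKO (red) samples, with replicates 1 to 4 from left to right and the mean ± SD beside them. For Unc119 the controls lie between 276 and 422 CPM and the Mettl3-CKO samples between 180 and 237, while for Rpgrip1 control replicate 1, at 644 CPM, lies within the range of the Mettl3-CKO samples.

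The BBSome was the role group with most calls. The 7 members all had a negative log2 fold change, with a median of -0.31, 4 were called lower, and in 6 of the 7 every Mettl3-CKO sample lay below every control, which held for 7.59% of all genes tested. The summed level of the 7 was 491, 393, 370 and 394 CPM in control and 309, 301, 331 and 349 CPM in Mettl3-CKO. The sums did not overlap and the mean differed by -21.8%.

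Bbs9, which encodes a beta-propeller scaffold subunit, was at 106, 79.6, 72.5 and 78.9 CPM in control and at 55.2, 44.3, 59.8 and 67.8 CPM in Mettl3-CKO. The groups were apart, and the log2 fold change was -0.57 (SE 0.14, adjusted p = 0.0244). Ttc8 encodes a subunit built of tetratricopeptide repeats. It was at 55.5, 41.3, 39.6 and 43.4 CPM in control and at 32, 33.7, 31.5 and 35.8 CPM in Mettl3-CKO. The groups were again apart, with control replicate 1 well above the other controls, and the log2 fold change was -0.43 (SE 0.11, adjusted p = 0.0266).

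Bbs1, whose product binds ARL6 when the complex is recruited to membranes, was at 84.7, 74.2, 75.6 and 71.4 CPM in control and at 57.1, 59.5, 56.8 and 65.7 CPM in Mettl3-CKO. The log2 fold change was -0.36 (SE 0.09, adjusted p = 0.0246), and no samples overlapped. Bbs5, which encodes a subunit with pleckstrin homology folds, was at 38.3, 34.6, 34.8 and 37.4 CPM in control and at 25.7, 28.0, 31.5 and 31.4 CPM in Mettl3-CKO. The groups did not overlap either, but with a log2 fold change of -0.31 (SE 0.09) the adjusted p of 0.0499 lay at the threshold. The remaining members Bbs2 (-0.30, SE 0.10, adjusted p = 0.0877), Bbs7 (-0.24, SE 0.11, adjusted p = 0.220) and Bbs4 (-0.21, SE 0.12, adjusted p = 0.280) did not pass. The small subunit gene Bbip1, not among the members and named after its values were seen, differed by -0.14 (SE 0.09, adjusted p = 0.399), with overlapping samples. The exact permutation test gave its smallest p, 0.0286, for each of the 4 called subunits and also for Bbs2 and Bbs7, which were not called. With 4 samples a group this p only restates that the groups do not overlap.

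Genes that recruit or assemble the BBSome gave no call. Arl6, the GTPase that brings the complex to the membrane and the most abundant of the group at 30.2 FPKM in control, was at 85.6, 63.0, 51.5 and 55.1 CPM in control and at 52.0, 51.2, 54.9 and 50.1 CPM in Mettl3-CKO. Control replicate 1 stood above the rest, the other 7 samples overlapped, and the log2 fold change was -0.29 (SE 0.14, adjusted p = 0.211). Mkks, Bbs10 and Bbs12 encode chaperonin-like proteins of BBSome assembly. Mkks was at 9.08, 5.93, 7.38 and 6.51 CPM in control and at 14.2, 8.45, 10.1 and 10 CPM in Mettl3-CKO. Its log2 fold change of 0.57 (SE 0.18) was the highest of the 42 genes but missed the threshold in edgeR (adjusted p = 0.0678), while DESeq2 gave an adjusted p of 0.0331. In the GENCODE annotation 29.3% of the exon bases of Mkks are shared with a neighbouring gene on the same strand, so its reads cannot be assigned with certainty. Bbs10 (-0.07, SE 0.17) and Bbs12 (-0.11, SE 0.14) lay within their standard errors of 0.

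The transition zone held 2 calls among 10 genes. Rpgrip1 encodes the scaffold that anchors RPGR in the connecting cilium, and at 67.7 FPKM in control it was the most abundant of the 10. Its level was 644, 862, 804 and 986 CPM in control and 488, 591, 562 and 676 CPM in Mettl3-CKO. Control replicate 1 lay below Mettl3-CKO replicate 4, so the groups overlapped. The log2 fold change was -0.51 (SE 0.13, adjusted p = 0.0285 in edgeR), and the exact permutation p was 0.0571. In the annotation 8.7% of the exon bases of Rpgrip1 overlap Supt16 on the opposite strand, whose log2 fold change was 0.02, and whether the counting used strand is not given in the sources used here.

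Cc2d2a, which encodes a transition zone protein of the tectonic complex, was at 66.8, 74.7, 66.8 and 82.2 CPM in control and at 53.1, 54.2, 48.7 and 64.9 CPM in Mettl3-CKO. The highest Mettl3-CKO sample stayed below the lowest control, and the log2 fold change was -0.39 (SE 0.11, adjusted p = 0.0354). Cep290, which encodes a large protein that bridges membrane and microtubules in the connecting cilium, was at 242, 154, 131 and 163 CPM in control and at 128, 113, 134 and 134 CPM in Mettl3-CKO. Control replicate 1 stood far above the other samples, and the log2 fold change of -0.44 (SE 0.15) did not pass in edgeR (adjusted p = 0.0883), whereas DESeq2 gave 0.0415. Nphp4, which encodes a nephrocystin, had a log2 fold change of -0.26 (SE 0.12, adjusted p = 0.179) and was called lower only when control replicate 1 was left out.

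The other 6 transition zone genes lay close to 0. Rpgr, the binding partner of RPGRIP1, differed by -0.06 (SE 0.12, adjusted p = 0.838), and Rpgrip1l, the paralog of Rpgrip1 used in cilia of many tissues, by 0.04 (SE 0.10, adjusted p = 0.854). Ahi1 and Tmem67 were at -0.09 and -0.01, and Lca5 and Spata7, both genes of Leber congenital amaurosis, were each at 0.08. The lowest adjusted p among these 6 was 0.618. Within each sample, the ratio of Rpgrip1 to Rpgr FPKM was 5.56, 5.42, 5.87 and 5.52 in control and 3.57, 3.78, 4.39 and 4.61 in Mettl3-CKO. These ratios were apart although the Rpgrip1 levels overlapped, a pair again chosen after its values were seen, and the ratio of Rpgrip1 to Rpgrip1l overlapped between the groups.

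IFT-B carries tubulin and other cargo towards the ciliary tip, and none of its 11 genes among the members was called, while the wider IFT-B genes Ttc30a1 and Ttc30b, described further on, were higher. The log2 fold changes of the 11 ran from -0.13 to 0.11 with a median of -0.03 and standard errors between 0.09 and 0.15, and the lowest adjusted p was 0.462. Ift20, the subunit that also resides at the Golgi and the most abundant of the 11 at 32.6 FPKM in control, had the largest difference. It was at 68.7, 46.7, 47.4 and 37.2 CPM in control and at 44.5, 41.5, 52.1 and 44.8 CPM in Mettl3-CKO. Control replicates 1 and 4 were the highest and the lowest of the 8 samples, and the log2 fold change was -0.13 (SE 0.15, adjusted p = 0.661). Ift88 (-0.03), a core scaffold subunit, and Ift172 (-0.01), Ift80 (0.00), Ift81 (-0.03), Ift74 (-0.07), Ift22 (-0.02), Ift27 (0.03), Ift46 (-0.11), Ift57 (-0.12) and Ift52 (0.11) did not differ beyond their spread. The summed level of the 11 was 472 to 589 CPM in control and 480 to 537 in Mettl3-CKO.

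IFT-A, which works with dynein in transport back to the base and imports membrane proteins, was represented by 3 members. Ift122, a core subunit, was at 68.7, 62.1, 69.0 and 66.6 CPM in control and at 52.7, 56.0, 60.0 and 54.6 CPM in Mettl3-CKO. The groups did not overlap, but the log2 fold change of -0.26 (SE 0.08) gave an adjusted p of 0.067 in edgeR and 0.0301 in DESeq2, so the call depended on the tool. Ift140 differed by -0.19 (SE 0.08, adjusted p = 0.190). Ift43, at 28.6, 26.1, 25.0 and 25.6 CPM in control and 29.6, 27.8, 29.4 and 27.3 CPM in Mettl3-CKO, differed by 0.12 (SE 0.09, adjusted p = 0.465), with overlapping samples. The other IFT-A subunits, named here after their values were seen to complete the complex, belong to the wider genes described further on and were not called either. Wdr19 differed by -0.21 (SE 0.09, adjusted p = 0.188) with no overlap between the groups, Wdr35 by -0.16 (SE 0.11, adjusted p = 0.424) and Ttc21b by 0.15 (SE 0.12, adjusted p = 0.500).

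The motors were unlike in level and alike in giving no call. Kif3a, the motor subunit of heterotrimeric kinesin-2, was at 153, 139, 133 and 130 CPM in control and at 141, 152, 149 and 132 CPM in Mettl3-CKO (log2 fold change 0.04, SE 0.08, adjusted p = 0.8). Kif17, a homodimeric kinesin-2, was at 1.82, 1.65, 1.52 and 1.81 CPM in control and at 1.66, 1.74, 2.17 and 2.19 CPM in Mettl3-CKO (log2 fold change 0.19, SE 0.22, adjusted p = 0.653). The samples of both genes overlapped.

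Per gene length, the 42 genes spanned 0.369 FPKM (Kif17) to 136 FPKM (Unc119) in control, with a median of 10.6 FPKM. Unc119 was followed by Arl3 (73.5), Rpgrip1 (67.7), Kif3a (38.6), Ift20 (32.6), Arl6 (30.2) and Pde6d (27.4). In this order, Arl3 and Rpgrip1, and each neighbouring pair from Kif3a to Pde6d, differed by less than the larger of their control SDs. Relative to IFT-B, the mean FPKM of the BBSome was 1.03, 0.983, 0.966 and 1.12 in control and 0.789, 0.794, 0.803 and 0.942 in Mettl3-CKO, a ratio taken within each sample and therefore free of library scaling. The ratios did not overlap, the mean differed by -18.9%, and the pair of groups was chosen after the values were seen.

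**Figure D3:**
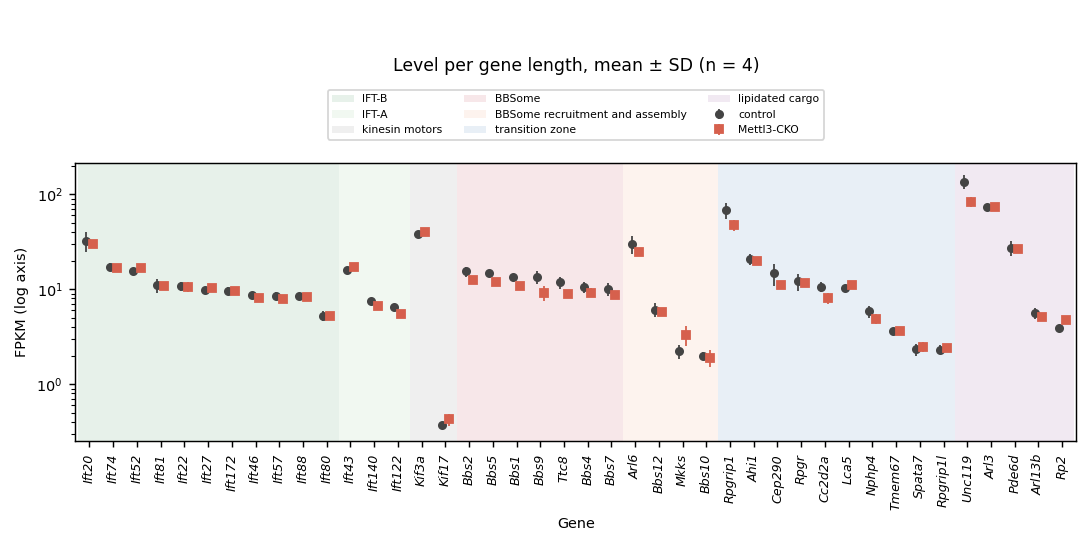
FPKM (vertical log axis, mean ± SD, n = 4) of the 42 genes in control (grey circles) and Mettl3-CKO (red squares), ordered within each shaded role group by control level. Unc119 (136 FPKM in control) and Kif17 (0.369 FPKM) mark the ends, and the 7 BBSome genes lie together between 10 and 15.4 FPKM in control.

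Markers of cell types moved between the groups too. The 15 rod markers summed to 6480, 4750, 4300 and 5000 CPM in control and to 2660, 2500, 3390 and 4190 CPM in Mettl3-CKO, with 8 called lower, none higher and a median log2 fold change of -0.68. Of these, Nrl and Nr2e3, the rod fate factors, differed by -0.79 and by -0.81 (adjusted p = 0.00861 and 0.00615 in edgeR). The 15 progenitor and cell cycle markers summed to 2430 to 3230 CPM in control and 3200 to 4440 in Mettl3-CKO, with 5 called higher and none lower. The 10 cone markers gave 1 call, lower, in 9 tested and the 11 tested markers of motile cilia gave none, with the 15 listed summing to 92.2 to 97.7 CPM in control and 91.5 to 97.6 in Mettl3-CKO. The 10 pigment epithelium markers, with 4 lower and 1 higher among the 9 tested, summed to 99.5 to 138 CPM in control and 74.1 to 100 in Mettl3-CKO. Other lists were lower for 7 of 9 tested endothelial genes, 2 of 3 erythrocyte genes and 6 of 9 lens genes, the last carried by control replicate 4, while the bipolar and Müller glia lists each gave 1 call in each direction, the amacrine list 1 lower and the ganglion cell list 1 higher. The part of these cells in the cilium gene results was not tested.

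Set against the summed rod markers of the same sample, Unc119, Rpgrip1, Cc2d2a, the BBSome sum and the IFT-B sum all overlapped between the groups. Per 1000 CPM of rod markers, Unc119 was at 65.2, 68.7, 64.2 and 62.1 CPM in control and at 67.7, 75.1, 63.2 and 56.6 CPM in Mettl3-CKO. The same quotient was 99.4, 182, 187 and 197 in control and 183, 237, 166 and 161 in Mettl3-CKO for Rpgrip1, with control replicate 1 the lowest of the 8 samples. For the BBSome sum it was 75.8 to 86.0 in control and 83.3 to 120 in Mettl3-CKO, and for the IFT-B sum 90.9 to 115 in control and 114 to 206 in Mettl3-CKO. The group means were 65.0 ± 2.77 and 65.7 ± 7.80 for Unc119, 80.8 ± 4.44 and 104 ± 17.2 for the BBSome sum, and 103 ± 12.2 and 167 ± 40.5 for the IFT-B sum, in control and Mettl3-CKO (SD, n = 4 each). The part of the rod markers was not tested either, and in bulk retina fewer cells of a type and less RNA per cell cannot be told apart.

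The wider cilium pathway was covered by 75 further genes listed by role. Of the 74 tested, 5 were higher and 5 lower, 6.76% in each direction beside 6.49% and 4.05% of all genes, and the median log2 fold change was 0.00. The 20 further transition zone genes gave no call, with log2 fold changes between -0.29 and 0.19. The lower genes included Tulp1, which encodes a photoreceptor tubby-like protein (436 ± 9.28 CPM in control, 288 ± 40.2 in Mettl3-CKO, log2 fold change -0.60, adjusted p = 0.00308), the kinase gene Mak (-0.49, adjusted p = 0.0369) and Fam161a (-0.46, adjusted p = 0.0298), whose products reside at the photoreceptor axoneme or connecting cilium, and Wdr60 (-0.40, adjusted p = 0.0299), a dynein-2 intermediate chain. Tulp1 was the lower gene with the largest fold of this list, and its control samples at 442, 441, 422 and 440 CPM lay above the Mettl3-CKO samples at 269, 247, 297 and 340 CPM.

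Higher were Ttc30a1 (0.88, adjusted p = 0.00926) and Ttc30b (0.62, adjusted p = 0.013), copies of an IFT-B subunit gene so alike that reads may be split between them, and Topors (0.57, adjusted p = 0.00555), an E3 ligase gene linked to retinitis pigmentosa. Trim32, an E3 ligase gene of Bardet-Biedl syndrome, was higher by 0.45 (adjusted p = 0.0339), and Ccp110, which encodes a cap of the mother centriole that is removed when a cilium forms, by 0.27 (adjusted p = 0.035). Topors was at 68.2, 54.9, 54.7 and 54.9 CPM in control and at 97.4, 80, 88.2 and 79.7 CPM in Mettl3-CKO. These samples did not overlap. The 6 tested RFX and FOXJ1 factor genes gave no call, with a lowest adjusted p of 0.102. Without control replicate 1, 8 wider genes were higher and 8 lower, and without Mettl3-CKO replicate 1 there were 2 and 1.

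**Figure D4:**
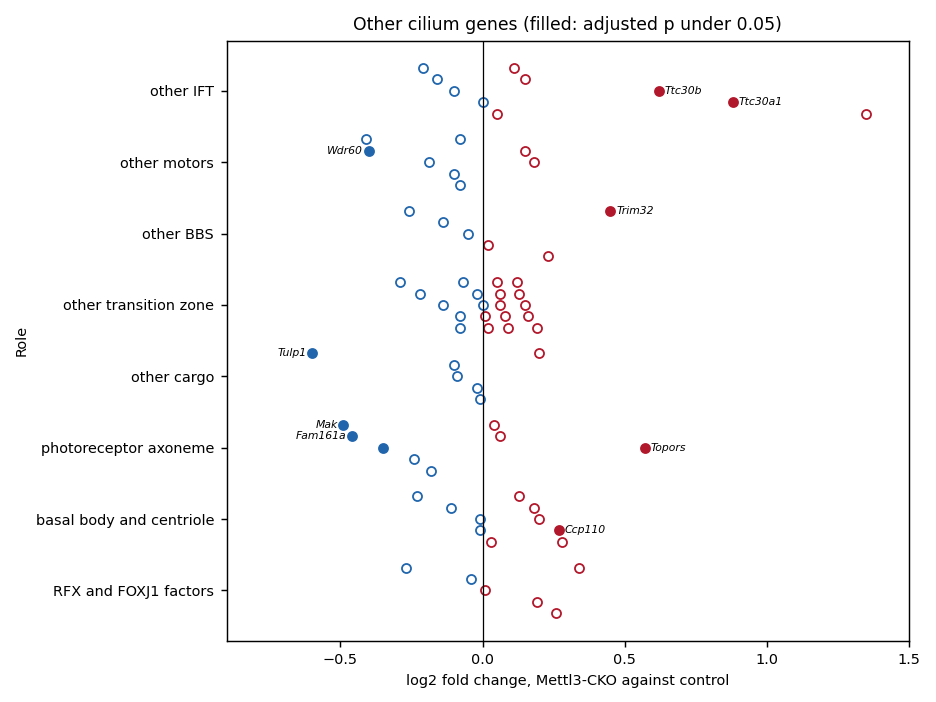
Log2 fold change in Mettl3-CKO against control (horizontal axis) of the 74 tested further cilium genes, each point a gene, in rows by role; red is higher, blue lower, and filled points have an adjusted p under 0.05. The 4 named genes on the left lie between -0.60 and -0.40 and the 5 on the right between 0.27 and 0.88.

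The number of members called depended on the libraries more than on the tool. By limma voom 6 members were lower, by the other 3 scalings 7 each, and by DESeq2 9, with Mkks called higher by DESeq2 as well. No called gene changed direction between these fits. Unc119 was in every set, and Bbs1, Bbs9, Ttc8, Rpgrip1 and Cc2d2a were in each set from the 8 samples together. Bbs5 left under voom, without the low-count filter and with the replicate block. The share of members called lower was at or above that of all genes under every setting run, and near it without Mettl3-CKO replicate 2 (2.38% of members, 2.22% of all genes).

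**Figure D5:**
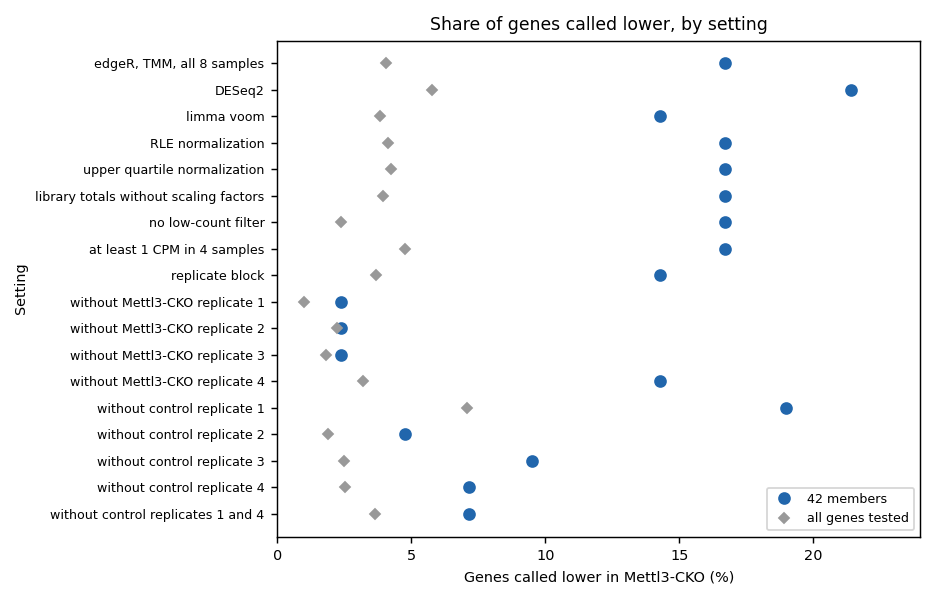
Share of genes called lower in Mettl3-CKO (horizontal axis, percent) among the 42 cilium genes (blue circles) and among all genes tested (grey diamonds), for the fit with all 8 samples (top) and the alternatives at an adjusted p under 0.05. The member share in these fits lies between 2.38% and 21.4%.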

How the data were processed

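The authors sequenced RNA libraries (NEBNext Ultra kit, paired ends) and, per the labels, aligned reads to GRCm38 (mm10) with HISAT2 and counted them with featureCounts; strand setting and annotation release are not given in the sources used here. The deposited table holds raw counts per gene. Gene length was taken from the same table. FPKM was computed from counts, gene length and library total. Counts were tested with edgeR 4.0.16 (R 4.3.3; filterByExpr, TMM, quasi-likelihood test, Benjamini-Hochberg over all 17998 genes tested, threshold 0.05), although the study used DESeq2, and DESeq2 1.42.0 and limma 3.58.1 were run here as alternatives. The 8 samples were grouped by the labels. In simulated data of this design, 30.3% of 1.5-fold, 85.1% of 2-fold and 94% of 4-fold changes were called. The 42 members and all lists were chosen with earlier results of these data known. All members are named; full values are given for called members and, per role group with no or few calls, for the most abundant gene and that with the largest fold. Listed symbols were matched to the table, 3 by an older symbol. Exon overlaps came from GENCODE vM21. A few listed genes are counted with their lists but not reported here by name.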

Additional observations from a re-analysis of the deposited data

Results flagged for a closer look

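Among the 84 sets of 4 values (42 genes in each group), 2 held a sample that stood farther from the other 3 than Dixon's test allows at the 95% level, where chance would give about 4.2. Bbs12 was at 19.3 CPM in control replicate 1 against 13.0 to 13.9 CPM in the other controls. Arl3 was at 64.8 CPM in Mettl3-CKO replicate 3 against 57.6 to 58.4 CPM in the other Mettl3-CKO samples. Neither gene was called.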

How the results depend on the processing

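The choices tried were DESeq2, limma voom, RLE, upper quartile or no scaling, no filter on low counts, at least 1 CPM in 4 samples, an adjusted p under 0.10, the replicate number as a block, and each library or both control replicates 1 and 4 left out. Members called higher, 0 in the report, numbered 1 with DESeq2, without the low-count filter, with the replicate block and without control replicates 1 and 4 (Mkks in each), and 2 at an adjusted p under 0.10. Members called lower fell to 3 without control replicates 1 and 4 (Bbs1, Rpgrip1 and Unc119). Leaving out each library gave 1 to 8 members lower and 0 to 2 higher, 1 to 8 wider genes lower and 2 to 8 higher, and 185 to 1289 of all genes lower and 509 to 1882 higher. All genes called lower numbered 1195 at an adjusted p under 0.10. TGCTGA was in 5 member promoters when the last 200 bases of the window were searched. TAATCC was then in 2, Rpgrip1 and Unc119 but not Bbs1, which is 5.26% of members beside 5.15% of all genes.

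Same-numbered samples deviated together with correlations of -0.111, 0.215, -0.114 and 0.249. The most alike control had the same number for Mettl3-CKO replicates 2 and 4 and another number for replicates 1 and 3. These few values cannot settle whether the numbers pair the samples. With the replicate block 6 members were lower and 1 higher. The log2 fold change changed sign without control replicates 1 and 4 for Ift22 (0.03), Ift81 (0.06), Ift88 (0.01), Bbs12 (0.05), Arl3 (0.06) and Pde6d (0.07), and for Ift80 under voom (0.00), unscaled totals (0.01), no filter (0.00) and the block (0.00). When each library was left out, the sign varied for Ift20 (-0.25 to 0.06), Ift22 (-0.08 to 0.07), Ift74 (-0.11 to 0.00), Ift80 (-0.06 to 0.06), Ift81 (-0.09 to 0.10), Ift88 (-0.06 to 0.02), Ift172 (-0.06 to 0.04), Bbs10 (-0.17 to 0.06), Bbs12 (-0.17 to 0.04), Rpgr (-0.15 to 0.05), Rpgrip1l (-0.02 to 0.11), Tmem67 (-0.05 to 0.02), Ahi1 (-0.15 to 0.00), Arl3 (-0.08 to 0.03) and Pde6d (-0.12 to 0.11). None of these genes was called, and the causes were not tested. In simulated data only 30.3% of 1.5-fold changes were called, and every member here but Unc119 changed by less than that. The simulation held 66 or 67 changed genes at each fold, while 1897 genes were called here. Fewer changed genes make the adjusted p stricter, so the 30.3% need not hold for this comparison. Genes that were not called may still differ by amounts this depth and number of samples cannot show.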
